A study of Mus musculus with 18 samples.

Results

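The integrated stress response and amino acid genes are 35 genes chosen by symbol, by a rule with no threshold on measured values: the transcription factor Atf4 with factors that act beside it, its best known targets, enzymes that make serine, asparagine, proline and cysteine, amino acid carriers, and enzymes that charge tRNAs. All 35 were in the deposited table of 20612 genes with 1 row each, and all 35 passed the filter on low values that left 11890 genes for testing. RNA-seq libraries came from cultured muscle stem cells (MuSCs), which regenerate skeletal muscle, of 4-month-old mice, and from the muscle cells these form in culture. There were 3 genotypes, with 2 libraries at each of 3 times, 18 libraries in 9 groups. WT mice carried none of the disease mutations. DSM-TKO (TKO) mice carried 1 mutant copy each of Dmpk, Six5 and Mbnl1. DSMD-QKO (QKO) mice carried these and 1 mutant copy of Dmwd. The mutants model myotonic dystrophy type 1 (DM1) by lowering the dose of genes that the disease repeat affects. All mice, WT included, were semi-cloned (SC), that is, made by injecting haploid embryonic stem cells into oocytes, and those haploid cells lack H19-DMR and IG-DMR, regions that control imprinted genes. The QKO haploid cells were made from the TKO ones, and the sources used here do not say which clones gave these libraries. T cell conditional medium kept the cells dividing up to day 0, and the cells of days 1 and 2 had been in differentiation medium for that time. The strain is labelled C57BL/6, while the study's methods give the oocyte donors as B6D2F1 females, a cross of C57BL/6J and DBA/2.

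The integrated stress response is the way a cell answers shortage of amino acids, faulty protein folding in the endoplasmic reticulum, mitochondrial faults or viral RNA. Kinases phosphorylate the initiation factor eIF2, most protein synthesis slows, and the Atf4 mRNA is translated more. ATF4 protein then switches on genes for amino acid synthesis, import and tRNA charging, and with long stress also Ddit3 (CHOP), Trib3 and Chac1, which are tied to cell death. In muscle the response is best known for the secreted factors FGF21 and GDF15, which rise in the blood in mitochondrial muscle disease. ATF4 is controlled largely at translation, so RNA values show its targets and not its activity.

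The deposited values are RPKM, read numbers corrected for library depth and gene length. The depth behind them, recovered from the size of their steps, was 34.8 to 60.7 M reads per library, so that a single read in a 1 kb transcript gives 0.0165 to 0.0288 RPKM. The labels do not say whether replicates came from separate animals or cultures, so the spread that the p-values rest on may be technical. WT day 0 replicate 2 stood apart from replicate 1 by gene length: the shortest 10% of genes were higher by a median of 0.68 on the log2 scale and the longest 10% were lower, at -0.60. Of the targeted genes, Dmwd was at 28.4 to 44.2 RPKM in the QKO libraries, below the 45.3 to 81.1 RPKM of all WT libraries. Dmpk at day 0 ranged from 237 to 341 RPKM for WT, 196 to 203 for TKO and 145 to 146 for QKO, and Six5 from 2.26 to 3.39 RPKM for WT, 1.36 to 1.59 for TKO and 1.25 to 1.57 for QKO. Dmpk was below WT in both mutants at days 1 and 2 as well, and its ranges overlapped only with the days pooled. Six5 overlapped WT at day 1 in both mutants and at day 2 in TKO, and was below WT at day 2 in QKO. Mbnl1 overlapped WT at day 0 and was below it in both mutants later. At day 1 it ranged from 10.3 to 11.1 RPKM for WT, 8.64 to 9.84 for TKO and 9.05 to 9.19 for QKO. At day 2 it ranged from 12.1 to 15.6 RPKM for WT, 10.6 to 10.8 for TKO and 10.2 to 11.9 for QKO. The mutant Mbnl1 allele lacks an exon, which a gene-level value cannot show. The 6 markers of differentiated muscle summed to 870 to 1020 RPKM in WT at day 0, 2791 to 3942 in TKO and 2182 to 2985 in QKO, and to at least 11549 RPKM in every library of days 1 and 2. Of 6 fibroblast markers, Pdgfra, Dcn and Lum stayed under 1 RPKM in every library, and the sum of the 6 at day 0 was 88.5 to 92.3 RPKM in WT, 174 to 178 in TKO and 175 to 226 in QKO. The sums of endothelial, Schwann and adipocyte markers did not exceed 2.05 RPKM in any library, and those of immune markers did not exceed 6.23 RPKM.

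ATF4 binds DNA together with C/EBP proteins at a composite element whose usual spelling is TGATGCAA, or TTGCATCA on the other strand. The promoters shown here, from 250 bases before to 50 bases after the transcription start, were taken from RefSeq (assembly GRCm38.p6), which held 29 of the 35 genes. The element, searched on both strands, was in 8 of those 29 genes (27.6%), against 279 of 27025 genes (1.03%) and 294 of 32851 promoters (0.895%) in the whole table. With any base at the sixth place, TGATGNAA, a spelling that includes the first, it was in 11 of 29 genes (37.9%), adding Trib3, Asns and Gars, against 4.51% of all genes. A match is a stretch of letters and not a shown binding site. The members were chosen in part as known ATF4 targets, so their larger share is no independent result about the set. Fgf21 is printed in full because it changed most over the experiment, as 300 bases 5′ to 3′ with the element in capitals, 139 bases before the start.
Fgf21 promoter, chr7:45615441-45615740, minus strand: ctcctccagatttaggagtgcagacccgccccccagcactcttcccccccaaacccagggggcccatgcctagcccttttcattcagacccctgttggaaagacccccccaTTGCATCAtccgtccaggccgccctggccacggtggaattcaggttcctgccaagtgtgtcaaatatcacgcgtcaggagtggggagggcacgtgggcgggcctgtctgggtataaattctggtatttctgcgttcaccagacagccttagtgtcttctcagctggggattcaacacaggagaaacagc

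The other 7 genes with the element are shown as the element in capitals with 16 bases on either side, to compare its spelling and setting between members. Slc7a11 held it in both orientations within one stretch, which begins 66 bases before the start, and in the others it began 103 to 200 bases before the start.
Atf3, chr1:191183420-191183459, minus strand: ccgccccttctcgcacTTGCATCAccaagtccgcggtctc
Nupr1, chr7:126625557-126625596, minus strand: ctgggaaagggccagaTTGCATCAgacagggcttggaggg
Chac1, chr2:119351033-119351072, plus strand: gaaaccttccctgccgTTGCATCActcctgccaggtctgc
Vldlr, chr19:27216804-27216843, plus strand: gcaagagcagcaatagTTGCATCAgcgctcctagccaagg
Pycr1, chr11:120643828-120643867, minus strand: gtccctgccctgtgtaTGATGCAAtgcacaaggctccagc
Slc7a11, chr3:50443637-50443695, minus strand: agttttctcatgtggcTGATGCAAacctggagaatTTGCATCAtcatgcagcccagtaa
Aars, chr8:111033714-111033753, plus strand: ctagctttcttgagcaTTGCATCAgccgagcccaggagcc

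Levels differed widely among the members. Gars, Atf4, Nars and Psat1 had medians over the 18 libraries of 141, 178, 130 and 112 RPKM, per length and per depth. Slc7a3, a carrier of basic amino acids, had a median of 0.366 RPKM and reached 1 RPKM in only 2 libraries. The ratio of the highest to the lowest library was 120-fold for Fgf21, 50.5-fold for Cth, 40.1-fold for Slc7a11, 22.5-fold for Vldlr and 16.9-fold for Trib3, and under 2-fold for Aars, Gars, Nars and Eprs. TKO day 2 replicate 1 was the highest library for 10 of the 35 genes, and QKO day 2 replicate 2 was the lowest for 9. Over the 15 comparisons of 2 groups, 31 genes passed the test at least once and 4, Psat1, Slc7a3, Gars and Eprs, never did. The share of all genes that passed at least once was not counted, so 31 is no result about the set. In WT from day 0 to day 1 alone, 46.1% of all genes fell and 20.4% rose. In the GENCODE M21 annotation 7 members share exon sequence with another protein-coding gene: Ddit3 with Mars, and likewise Atf5, Cebpb, Ppp1r15a, Shmt2 and Aars with neighbours. A strand setting is not given in the sources used here, so reads of such pairs may be split or shared, and the values of Ddit3 and Mars are uncertain for that reason.

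**Figure D1:**
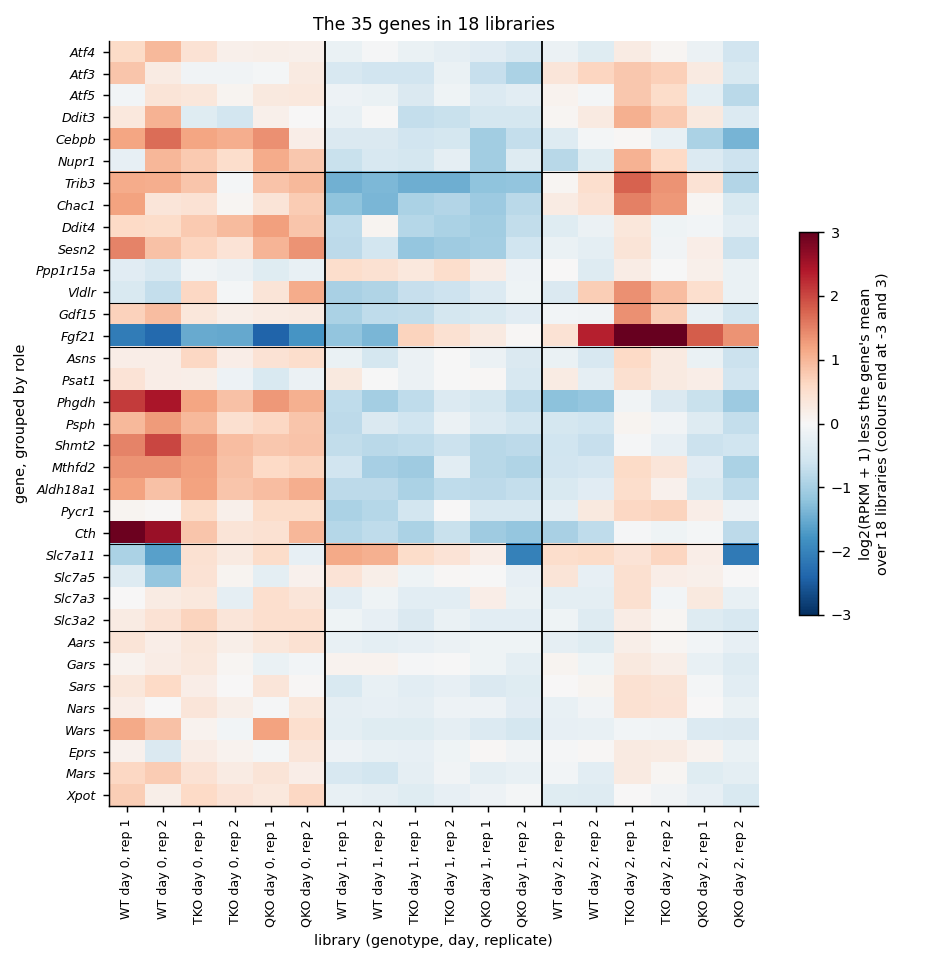
Each row is 1 of the 35 genes, grouped by role, and each column 1 of the 18 libraries, ordered by day and genotype. Colour is log2(RPKM + 1) less the gene's mean over all libraries and ends at -3 and 3, which both TKO day 2 libraries exceed for Fgf21. Most rows are high at day 0 and low at day 1, Fgf21 runs the other way, and the stress genes are high again in the TKO day 2 libraries.

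The first comparison asks what happened to these genes when WT stem cells were moved to differentiation medium. In WT, 25 of 35 members fell from day 0 to day 1 and 3 rose (limma fit on log2(RPKM + 1), adjusted over all genes), where 46.1% of all genes fell and 20.4% rose. The median member moved by -0.90 on the log2 scale, and the median of all genes by -0.34. By role, 8 of 9 synthesis enzymes fell, as did 5 of 6 transcription factors, 4 of 6 stress effectors, 6 of 8 genes of tRNA charging and export, and 1 of 4 carriers. When libraries were instead scaled by the median ratio, the median of all genes was -0.03, 17 members fell and 4 rose, and the calls over all genes changed from 2429 higher and 5486 lower to 3644 and 3816. After removal of a trend with gene length 17 fell and 5 rose, and of the 28 genes called 1 changed sign under either setting, Nars, which charges tRNA with asparagine (-0.37 before).

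Cth, cystathionine gamma-lyase, which makes cysteine from methionine-derived cystathionine, showed the largest fall. It was at 24.4 and 19.0 RPKM at day 0 and 0.830 and 0.942 RPKM at day 1, on no fewer than 57 reads, a log2 fold change of -3.58 ± 0.24 (SE, n = 2 and 2, adjusted p = 3.44e-08). Phgdh, the first enzyme of serine synthesis, was at 284 and 362 RPKM at day 0 and 38.3 and 32.0 RPKM at day 1 (log2 fold change -3.16 ± 0.20, adjusted p = 1.53e-08). Shmt2, the mitochondrial enzyme that splits serine to glycine and a 1-carbon unit, went from 120.2 and 173 RPKM to 24.9 and 23.7 RPKM (-2.52 ± 0.17, adjusted p = 2.51e-08). In all 3 enzymes the day 0 libraries lay several times above the day 1 libraries. Psat1, the second enzyme of serine synthesis, was at 146 and 127 RPKM at day 0 and 137 and 110 RPKM at day 1, overlapping, with a log2 difference of -0.15 ± 0.26 (adjusted p = 0.627) that did not pass. Trib3, a pseudokinase that ATF4 and CHOP induce, went from 12.0 and 11.7 RPKM to 1.20 and 1.34 RPKM (-2.50 ± 0.34, adjusted p = 2.37e-05).

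Among the risers Slc7a11, the cystine importer, led, with 1.92 and 0.819 RPKM at day 0 and 11.3 and 10.7 RPKM at day 1 (2.38 ± 0.66, adjusted p = 0.00614). Slc7a5, the importer of large neutral amino acids, rose by 1.07 ± 0.26 (adjusted p = 0.00221) and Ppp1r15a, the phosphatase subunit that reverses eIF2 phosphorylation, by 0.90 ± 0.18 (adjusted p = 0.000484). Slc3a2, the heavy chain that both of these carriers need at the cell surface, fell by 0.53 ± 0.14 (adjusted p = 0.00449). Proliferation markers moved with this comparison: the 4 genes summed to 269 to 333 RPKM in WT at day 0 and 7.02 to 14.8 RPKM at day 1, and their part in the members' values was not tested. In bulk samples, fewer cells of a type and less RNA per cell cannot be told apart.

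In the mutants most members fell at this step as well. In TKO 24 members fell and 2 rose, where 42.1% of all genes fell and 15.8% rose. In QKO 27 fell and 1 rose, where 42.4% of all genes fell and 15.4% rose. Median-ratio scaling gave 14 falls and 2 rises in TKO and 16 and 2 in QKO, and moved the median of all genes from -0.315 to -0.005 in TKO and from -0.322 to -0.004 in QKO. The shares of all genes given above are those before this scaling, so they cannot be set beside the scaled counts. The TKO count of 26 was 16 without TKO day 0 replicate 1. In both mutants the largest rise was that of Fgf21, a hormone that muscle releases under stress, at 2.64 and 2.62 RPKM in TKO at day 0 and 15.6 and 13.3 at day 1 (2.09 ± 0.42, adjusted p = 0.000807), and at 0.985 and 2.06 RPKM in QKO at day 0 and 11.7 and 9.66 at day 1 (2.24 ± 0.42, adjusted p = 0.000459). In WT Fgf21 was at 1.43 and 1.06 RPKM at day 0 and 3.59 and 3.02 RPKM at day 1, with a log2 difference of 0.94 ± 0.42 (adjusted p = 0.0626). Both carriers that rose in WT differed from it in a mutant by the test of the difference between the steps. Slc7a5 was at 124.6 and 97.8 RPKM in TKO at day 0 and its difference at day 1 did not pass (-0.295 ± 0.26, adjusted p = 0.338), a change of -1.37 ± 0.36 relative to WT (adjusted p = 0.0312) that was lost in 8 of 24 alternatives (adjusted p up to 0.114), and Slc7a11 changed by -3.45 relative to WT in QKO (adjusted p = 0.0333), on replicates that differ widely from each other.

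The largest falls in TKO were in Aldh18a1, the first enzyme of proline synthesis, from 36.7 and 27.7 RPKM to 7.44 and 8.53 RPKM (-1.87 ± 0.18, adjusted p = 1.23e-06), and Trib3, from 9.65 and 4.73 RPKM to 1.14 and 1.16 RPKM (-1.86 ± 0.34, adjusted p = 0.000412). Shmt2 went from 104.8 and 80.5 RPKM to 24.3 and 26.5 RPKM (-1.82 ± 0.17, adjusted p = 9.21e-07). Ddit4, an inhibitor of mTORC1, went from 15.1 and 17.1 RPKM to 4.18 and 3.85 RPKM (-1.77 ± 0.25, adjusted p = 3.73e-05). No library of one day overlapped the other in these 4 genes. In QKO Trib3 went from 9.77 and 10.7 RPKM to 1.57 and 1.64 RPKM (-2.11 ± 0.34, adjusted p = 0.000146). Sesn2, a leucine sensor that restrains mTORC1, went from 13.9 and 17.6 RPKM to 2.63 and 3.86 RPKM (-1.99 ± 0.27, adjusted p = 3.48e-05). Ddit4 went from 21.1 and 15.6 RPKM to 3.58 and 4.59 RPKM (-1.92 ± 0.25, adjusted p = 1.77e-05), and Cth from 3.55 and 5.62 RPKM to 0.575 and 0.482 RPKM (-1.84 ± 0.24, adjusted p = 2.51e-05). These day 0 and day 1 libraries did not overlap either.

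The next comparison asks how mutant stem cells differed from WT before differentiation. At day 0, 5 members were lower in TKO than in WT and 1 was higher, where 10.2% of all genes were lower and 12.8% higher. In QKO 7 were lower and 2 higher, where 18.1% of all genes were lower and 17.3% higher. Counted in both directions, 6 and 9 of 35 members were called, a smaller share than among all genes, and in the lower direction alone the share was somewhat larger than among all genes. Both mutants are set against the same WT libraries. Synthesis enzymes made up 3 of the 5 lower genes in TKO and 4 of the 7 in QKO.

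Cth was at 24.4 and 19.0 RPKM in WT, at 4.86 and 3.28 RPKM in TKO and at 3.55 and 5.62 RPKM in QKO, with group means of 21.7 ± 3.81 (SD, n = 2), 4.07 ± 1.12 and 4.58 ± 1.46 RPKM. All 4 mutant libraries lay far below both WT libraries, at -2.17 ± 0.24 in TKO (SE, adjusted p = 3.54e-05) and -2.04 ± 0.24 in QKO (adjusted p = 7.22e-05). Phgdh was at 284 and 362 RPKM in WT, at 150.5 and 121 RPKM in TKO and at 163 and 139.6 RPKM in QKO, at -1.24 ± 0.20 (adjusted p = 0.000551) and -1.08 ± 0.20 (adjusted p = 0.00134). Shmt2 was at 120.2 and 173 RPKM in WT, at 104.8 and 80.5 RPKM in TKO and at 74.1 and 77.7 RPKM in QKO, at -0.64 ± 0.17 (adjusted p = 0.0141) and -0.92 ± 0.17 (adjusted p = 0.00131). For these 3 enzymes WT and mutant libraries did not overlap, and in QKO Mthfd2, the mitochondrial folate enzyme downstream of Shmt2, did not overlap either, at 72.1 and 72.1 RPKM in WT against 42.7 and 44.5 RPKM in QKO (-0.71 ± 0.24, adjusted p = 0.0327). The Mthfd2 call was lost without any one of the 4 libraries compared (adjusted p up to 0.114) and after removal of the length trend (adjusted p = 0.0616).

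Ddit3, the pro-apoptotic factor CHOP, was at 14.6 and 24.6 RPKM in WT, at 8.69 and 7.49 RPKM in TKO and at 12.8 and 11.6 RPKM in QKO, and was lower in TKO by the test (-1.14 ± 0.23, adjusted p = 0.00369). Wars, which charges tRNA with tryptophan, was at 78.9 and 65.8 RPKM in WT, at 38.5 and 33.3 RPKM in TKO and at 83.8 and 51.2 RPKM in QKO. Both TKO libraries were below all others of day 0, at -0.99 ± 0.18 against WT (adjusted p = 0.00155), and Wars was the only member of 35 that differed between QKO and TKO at day 0, higher in QKO (0.85 ± 0.18, adjusted p = 0.0245), where 1.53% of all genes were higher in QKO and 1.23% lower. That call was lost without either TKO library or without QKO replicate 1 (adjusted p = 0.084, 0.202 and 0.188).

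Slc7a5 was higher in both mutants, at 70.0 and 40.7 RPKM in WT, at 124.6 and 97.8 RPKM in TKO and at 75.7 and 101.3 RPKM in QKO (1.03 ± 0.26, adjusted p = 0.0111, and 0.70 ± 0.26, adjusted p = 0.0466). The QKO call lay close to the threshold and was not followed by gene through the alternatives. Without WT day 0 replicate 2 the TKO difference was 0.65 (adjusted p = 0.125), and without TKO day 0 replicate 1 it was 0.86 (adjusted p = 0.0949). Vldlr, a lipoprotein receptor that ATF4 induces, was at 0.763 and 0.482 RPKM in WT, at 2.72 and 1.33 RPKM in TKO and at 2.17 and 4.24 RPKM in QKO, higher in QKO by 1.33 ± 0.36 (adjusted p = 0.0122), a call lost without WT replicate 2 or QKO replicate 2 (adjusted p = 0.0775 and 0.113). Slc7a11 was at 1.92 and 0.819 RPKM in WT, at 6.75 and 5.78 RPKM in TKO and at 7.18 and 3.76 RPKM in QKO, 4.58 and 4.00 times the WT mean, with no overlap but adjusted p of 0.0856 and 0.106. The count in QKO went from 9 to 4 without WT day 0 replicate 2 and to 3 without QKO day 0 replicate 2, and that in TKO from 6 to 11 without WT day 0 replicate 1. The sums of muscle differentiation and fibroblast markers were higher in every mutant library at day 0, as given above. So were those of 6 muscle stem cell markers, at 1060 to 1107 RPKM in WT, 1805 to 2049 in TKO and 1814 to 2077 in QKO, and of 4 pericyte markers, at 12.1 to 16.3 RPKM in WT, 19.7 to 31.9 in TKO and 21.6 to 28.1 in QKO. The pericyte sum was largely Notch3, the only one of the 4 called in either mutant, at 11.1 and 7.07 RPKM in WT and 14.4 to 22.1 in the mutants. Rgs5 overlapped WT (4.85 and 4.98 RPKM) in the mutants (4.37 to 8.85 RPKM), and Pdgfrb and Cspg4 were under 1 RPKM at day 0. The stem cell sum was largely Myod1 and Des, and does not mark stem cells alone. Des itself rose as WT cells differentiated from day 0 to day 1 (1.92 ± 0.19, adjusted p = 1.09e-06). For Pax7, every mutant library of day 0 (20.8 to 26.9 RPKM) lay between WT replicate 2 (11.7 RPKM) and replicate 1 (27.6 RPKM). The 4 proliferation markers summed to 269 to 333 RPKM in WT, 254 to 312 in TKO and 146 to 239 in QKO. Their part in these results was not tested.

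**Figure D2:**
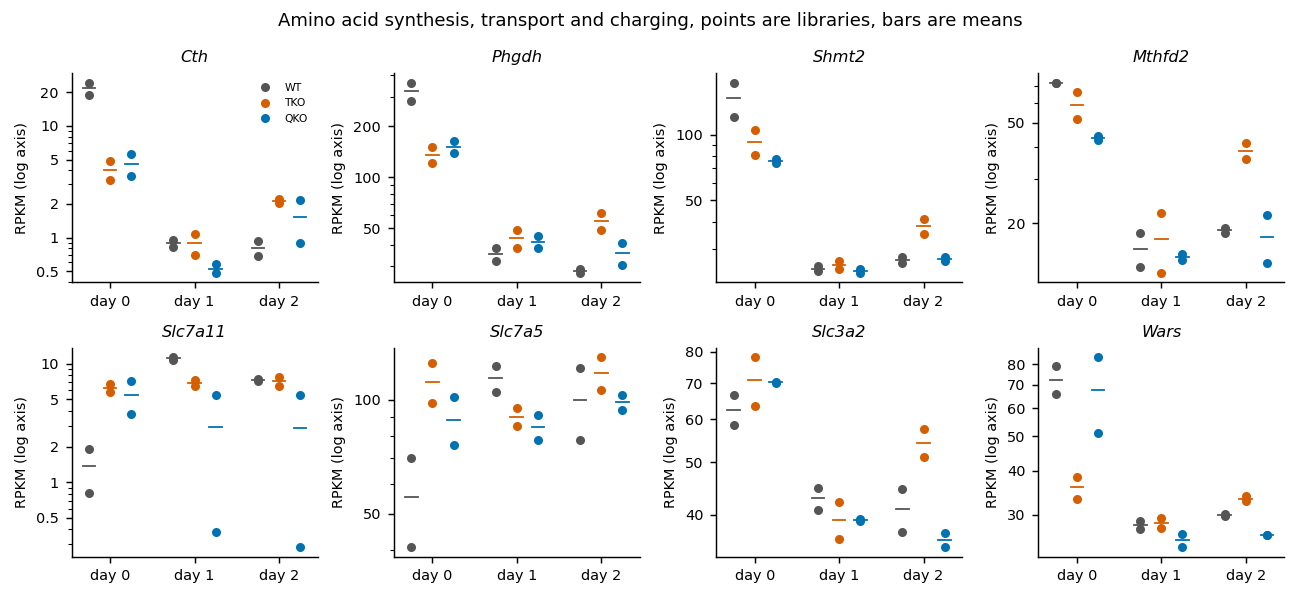
RPKM on a log axis by day, for 8 genes of amino acid synthesis, transport and charging. Points are libraries and bars are group means of 2 libraries, with WT in grey, TKO in orange and QKO in blue. Cth at day 0 is at 19.0 RPKM or more in WT and at 5.62 RPKM or less in the mutants, and Slc7a11 in QKO replicate 2 is at 0.380 RPKM at day 1 and 0.283 RPKM at day 2.

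One day into differentiation few members passed a test between genotypes. Between TKO and WT at day 1, 1 of 35 members was higher and the others did not pass, where 1.24% of all genes were higher and 0.841% lower. It was Fgf21, at 3.59 and 3.02 RPKM in WT against 15.6 and 13.3 RPKM in TKO, 4.38 times the WT mean (1.84 ± 0.42, adjusted p = 0.0403). QKO, at 11.7 and 9.66 RPKM, was also above both WT libraries, 3.23 times the WT mean, but did not pass (1.44 ± 0.42, adjusted p = 0.0837). The Fgf21 call in TKO was fragile: it was lost in 16 of 24 alternatives, with adjusted p from 0.000197 to 0.259 over all of them. Between QKO and WT at day 1, limma called 0 of 35 members, with 6 at an unadjusted p under 0.05 and 0 by voom, where 1.43% of all genes were higher and 1.33% lower. Between QKO and TKO at day 1 it called 0, with 1 at an unadjusted p under 0.05 and 0 by voom, where 0.0925% of all genes were higher and 0.16% lower. The 2 libraries of each group did not overlap in 18 of 35 members for TKO and WT, where that held for 59.3% of all genes, in 24 for QKO and WT, where it held for 59.7%, and in 20 for QKO and TKO, where it held for 51.7%.

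From day 1 to day 2 the number of members called was largest in TKO, and the difference between the genotypes at this step was not itself tested. In WT 6 members rose and 1 fell, where 10.4% of all genes rose and 5% fell, and the median member moved by 0.10 on the log2 scale beside 0.08 for all genes. In TKO 16 members rose and the other 19 did not pass, where 4.73% of all genes rose and 1.89% fell, and the median member moved by 0.565 beside 0.10 for all genes. In QKO limma called 0 members, with 7 at an unadjusted p under 0.05 and 0 by voom, where 1.42% of all genes rose and 1.62% fell. Under median-ratio scaling 6 rose and 1 fell in WT and 14 rose in TKO, while calls over all genes moved from 1242 higher and 595 lower to 907 and 1000 in WT, and from 562 and 225 to 321 and 381 in TKO.

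By role, the 16 genes that rose in TKO were 4 of 6 transcription factors, 5 of 6 stress effectors, both secreted factors, 3 of 9 synthesis enzymes and 2 of 8 charging genes, with no carrier. Trib3 rose most, from 1.14 and 1.16 RPKM at day 1 to 19.3 and 14.3 RPKM at day 2, 14.6 times the day 1 mean (3.03 ± 0.34, adjusted p = 0.000884). Fgf21 went from 15.6 and 13.3 RPKM to 118.5 and 105.9 RPKM (2.87 ± 0.42, adjusted p = 0.00266). Chac1, which degrades glutathione, went from 3.41 and 3.62 RPKM to 23.2 and 20.03 RPKM (2.32 ± 0.25, adjusted p = 0.000747). For these 3 genes every day 2 library was several times above every day 1 library. Vldlr went from 0.504 and 0.593 RPKM to 5.31 and 3.60 RPKM (1.80 ± 0.36, adjusted p = 0.0122), and Gdf15, a secreted factor that acts on appetite through the brainstem, from 2.78 and 3.42 RPKM to 15.5 and 9.64 RPKM (1.70 ± 0.19, adjusted p = 0.000884). Both day 2 libraries were above both day 1 libraries in 32 of 35 members, the others being Ppp1r15a, Phgdh and Slc7a11, where that held for 47.2% of all genes. Of the 8 members with the promoter element, 6 rose in TKO at this step, and 9 of the 21 whose promoter was searched and lacked it, a difference that was not tested. In the fall from day 0 to day 1 the numbers were 5 of 8 and 16 of 21 in WT and in TKO, and 6 of 8 and 17 of 21 in QKO. The count of 16 dropped to 6 without TKO day 1 replicate 1, to 9 without day 1 replicate 2 and to 6 without either day 2 library. Trib3, Fgf21, Chac1 and Gdf15 passed in all 24 alternatives, and Vldlr was lost without any one of the 4 libraries compared (adjusted p up to 0.118).

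In WT the same step raised Fgf21 from 3.59 and 3.02 RPKM to 13.1 and 51.6 RPKM (2.67 ± 0.42, adjusted p = 0.00164), Trib3 from 1.20 and 1.34 RPKM to 5.23 and 7.46 RPKM (1.68 ± 0.34, adjusted p = 0.00653) and Chac1 from 2.67 and 2.31 RPKM to 9.06 and 10.4 RPKM (1.62 ± 0.25, adjusted p = 0.00157). Atf3, an early stress factor, rose from 1.50 and 1.35 RPKM to 3.50 and 4.47 RPKM (1.03 ± 0.24, adjusted p = 0.0132), and Pycr1, the last enzyme of proline synthesis, from 1.04 and 1.17 RPKM to 2.28 and 3.82 RPKM (0.92 ± 0.21, adjusted p = 0.0122). Day 1 and day 2 did not overlap in any of these 5 genes, but the WT day 2 libraries differed from each other, replicate 2 being higher in all 5. The call of Trib3 was lost without WT day 2 replicate 2 (adjusted p = 0.0663), and those of Atf3 and Pycr1 without that library or either WT day 1 library (adjusted p up to 0.133). The count of 7 dropped to 2 without WT day 2 replicate 2 and to 3 without either WT day 1 library. In QKO Fgf21 was at 11.7 and 9.66 RPKM at day 1 and 36.0 and 25.7 RPKM at day 2, with no overlap and a difference of 1.44 ± 0.42 that did not pass (adjusted p = 0.0876).

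**Figure D3:**
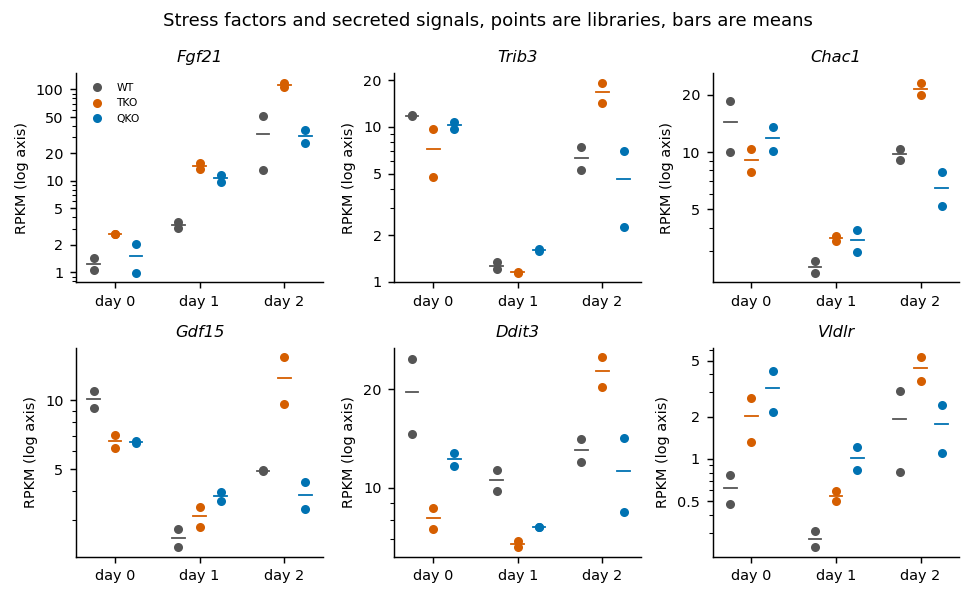
RPKM on a log axis by day, for 6 stress and secreted factor genes. Points are libraries and bars are group means of 2 libraries, with WT in grey, TKO in orange and QKO in blue. At day 2 both TKO libraries lie above all WT and QKO libraries in all 6 panels, and Fgf21 reaches 118.5 RPKM from 2.64 RPKM at day 0.

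At day 2, TKO stood above both other genotypes across most of the members, although few single genes passed the test. Against WT, 34 of 35 members had a positive difference, the exception being Slc7a11 at -0.02, with a median of 0.49 on the log2 scale beside 0.03 for all genes. Both TKO libraries were above both WT libraries in 31 of 35 members, where that held for 23.8% of all genes. Only Gdf15 passed, at 4.94 and 4.88 RPKM in WT against 15.5 and 9.64 RPKM in TKO (1.16 ± 0.19, adjusted p = 0.0347), where 0.0673% of all genes were higher and 0.0421% lower, and at an unadjusted p under 0.05 the count was 23 higher. The Gdf15 call was lost in 16 of 24 alternatives (adjusted p 0.0236 to 0.464), among them voom, median-ratio scaling and removal of the length trend. Fgf21 was at 13.1 and 51.6 RPKM in WT against 118.5 and 105.9 RPKM in TKO, 3.47 times the WT mean, with a difference of 2.05 ± 0.42 that did not pass (adjusted p = 0.146). Nupr1, a stress-induced chromatin factor, was at 10.1 and 14.4 RPKM in WT against 39.8 and 28.8 RPKM in TKO (1.42 ± 0.33, adjusted p = 0.215).

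Against TKO, all 35 members were lower in QKO at day 2, with a median of -0.58 on the log2 scale beside -0.11 for all genes, and under median-ratio scaling the medians were -0.44 and -0.01. Both QKO libraries were below both TKO libraries in 30 of 35 members, where that held for 42.3% of all genes. This comparison uses the same TKO libraries as the one with WT. By the test 5 members were lower in QKO, where 0.631% of all genes were lower and 0.109% higher. Trib3 was at 19.3 and 14.3 RPKM in TKO against 6.98 and 2.26 RPKM in QKO (-1.79 ± 0.34, adjusted p = 0.0384). Chac1 was at 23.2 and 20.03 RPKM in TKO against 7.81 and 5.18 RPKM in QKO (-1.61 ± 0.25, adjusted p = 0.0158). Gdf15 was at 15.5 and 9.64 RPKM in TKO against 4.40 and 3.33 RPKM in QKO (-1.45 ± 0.19, adjusted p = 0.00495). These 3 stress genes were 2 or more times lower in each QKO library than in each TKO library. Atf5, a factor related to ATF4 that serves the mitochondrial stress response, was at 80.4 and 67.0 RPKM in TKO against 36.7 and 25.2 RPKM in QKO (-1.24 ± 0.19, adjusted p = 0.0154), and Aldh18a1 at 22.2 and 16.9 RPKM and 10.9 and 8.51 RPKM (-0.94 ± 0.18, adjusted p = 0.0365). The count of 5 was 2 under voom, median-ratio scaling and removal of the length trend. It was 0 without TKO day 2 replicate 1 or QKO day 2 replicate 2, 1 without TKO day 2 replicate 2, 3 without either WT day 1 library and 17 without either WT day 0 library. The WT libraries enter this comparison only through the shared spread.

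Between QKO and WT at day 2 limma called 0 members, with 4 at an unadjusted p under 0.05 and 0 by voom, where 0.0673% of all genes were higher and 0.278% lower. The median member was at -0.09 on the log2 scale, as was the median of all genes. The summed muscle differentiation markers at day 2 were 15279 to 15736 RPKM in WT, 14400 to 14738 in TKO and 11549 to 14634 in QKO, and TKO day 2 replicate 1 had the fewest reads of all libraries. Their part in the day 2 differences was not tested.

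**Figure D4:**
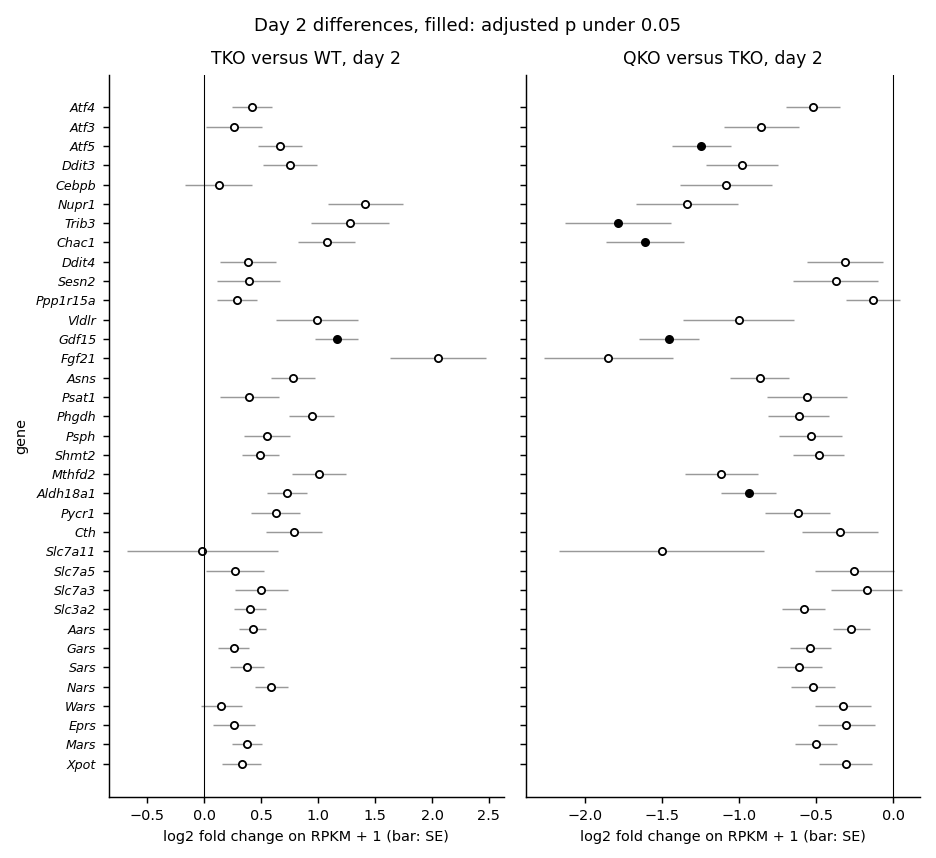
Log2 fold changes on RPKM + 1 at day 2 for the 35 genes, TKO less WT on the left and QKO less TKO on the right, with bars for the standard error of the fit over 2 libraries a group. Filled points passed an adjusted p of 0.05: Gdf15 on the left, and Atf5, Trib3, Chac1, Gdf15 and Aldh18a1 on the right. All points on the right are below 0, and on the left Slc7a11 alone is, at -0.02.

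Whether the mutant differed from WT by another amount at a later day than at day 0 was tested as a difference of differences. In TKO, 4 members were higher and 1 lower by this test at day 1, where 3.68% of all genes were higher and 5.66% lower. At day 2 the TKO count was 12 higher, where 3.42% of all genes were higher and 5.1% lower, and the median member was at 0.72 beside 0.03 for all genes. In QKO, 5 were higher and 1 lower at day 1, where 4.81% of all genes were higher and 6.16% lower, and 3 were higher at day 2, where 4.28% were higher and 8.39% lower. All 4 tests use the WT day 0 libraries. The TKO day 2 count fell to 4 without TKO day 0 replicate 2 or TKO day 2 replicate 1, to 7 without WT day 0 replicate 2, and was 16 without WT day 0 replicate 1. At day 1 the TKO count of 5 was 8 without WT day 0 replicate 1, 3 without WT day 1 replicate 1 or TKO day 0 replicate 1, and 2 without WT day 1 replicate 2, TKO day 0 replicate 2 or either TKO day 1 library. The QKO count of 6 at day 1 was 2 under voom, 3 without WT day 0 replicate 2, WT day 1 replicate 1 or QKO day 1 replicate 1, and 2 without WT day 1 replicate 2, QKO day 0 replicate 1 or QKO day 1 replicate 2. That of 3 at day 2 was 7 without WT day 0 replicate 1. Cth and Phgdh passed in all 4 tests, with positive values. Both were lower in the mutants at day 0, so a positive value need not mean a mutant above WT later. Mean Cth was 0.886 RPKM in WT, 0.888 in TKO and 0.529 in QKO at day 1, and 0.809, 2.11 and 1.53 at day 2. Mean Phgdh was 35.1, 43.8 and 41.8 RPKM at day 1, and 28.0, 55.1 and 35.8 at day 2.

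Slc7a11 had the most uneven replicates of the members. In QKO replicate 1 it was at 7.18, 5.44 and 5.41 RPKM at days 0, 1 and 2, and in replicate 2 at 3.76, 0.380 and 0.283 RPKM, the last on 105 reads. WT was at 11.3 and 10.7 RPKM at day 1 and 7.07 and 7.35 at day 2, and TKO at 7.21 and 6.48 RPKM and 6.50 and 7.77 RPKM, all far above QKO replicate 2. No comparison of QKO with WT or TKO on a single day passed for this gene (adjusted p 0.106 to 0.912), while the change of the QKO difference from WT between days 0 and 1 did (-3.45 ± 0.94, adjusted p = 0.0333), a call lost in 8 of 24 alternatives (adjusted p up to 0.132), among them voom and the fit without QKO day 1 replicate 2. Its heavy chain Slc3a2 differed far less between the QKO replicates, at 39.4 and 39.0 RPKM at day 1 and 37.0 and 34.9 at day 2. Atf4 mRNA itself ranged less than most targets, from 129 to 377 RPKM, and was highest in WT at day 0, at 283 and 377 RPKM, against 256.6 and 214 in TKO and 216 and 213 in QKO. It was lower in QKO than in WT at day 0 (-0.60 ± 0.17, adjusted p = 0.017), and its difference in TKO was -0.48 ± 0.17 (adjusted p = 0.0636).

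Other genes of the same pathways were counted by list. Of 18 further ATF4 targets, 9 fell and 1 rose in WT from day 0 to day 1, where 46.1% of all genes fell and 20.4% rose, with Pck2, mitochondrial phosphoenolpyruvate carboxykinase, at -3.43 ± 0.23 (adjusted p = 3.43e-08), Mthfd1l, a folate enzyme, at -3.04 ± 0.21 (adjusted p = 4.33e-08) and Bcat1, which transaminates branched-chain amino acids, at -2.85 ± 0.25 (adjusted p = 3.68e-07). From day 1 to day 2 in TKO 8 of the 18 rose, where 4.73% of all genes did. For the counts of day 0 that follow, 10.2% of all genes were lower and 12.8% higher in TKO, and 18.1% lower and 17.3% higher in QKO, and with lists this short several of the counts are near those shares. At day 0, 2 of them were lower in TKO, Pck2 (-0.80 ± 0.23, adjusted p = 0.026) and Lonp1 (-0.46 ± 0.11, adjusted p = 0.0081), and 3 were lower and 1 higher in QKO. Of 16 further cytosolic charging genes, 4 were lower and 1 higher in TKO at day 0 and 7 were lower in QKO, Vars leading in both (-0.60 ± 0.14, adjusted p = 0.00743, and -0.86 ± 0.14, adjusted p = 0.000617). Of 17 mitochondrial synthetases, 3 were lower and 1 higher in TKO and 4 lower in QKO, led by Aars2 (-0.62 ± 0.14, adjusted p = 0.00826) and Yars2 (-0.86 ± 0.12, adjusted p = 0.000303). Of 12 genes of the eIF2 kinases, eIF2 and eIF2B, 1 was lower in TKO, the amino acid sensing kinase Eif2ak4 (-0.58 ± 0.15, adjusted p = 0.0135), and 4 in QKO, led by Eif2s1 (-0.66 ± 0.13, adjusted p = 0.00228).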

How the data were processed

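The series holds 18 RNA-seq libraries. According to the study's methods, a TruSeq kit and an Illumina HiSeq X were used, trimmed reads were mapped with HISAT2 2.0.5 to protein-coding genes of GRCm38.p5, and StringTie gave the expression values (its version is not given in the sources used here). The authors deposited RPKM in 1 table of 22013 rows. For a symbol with several rows the one highest on average was used, and 1401 rows were dropped. Because RPKM rise in steps of single reads, depth, read numbers and the length of each gene (median 2906 bases) could be recovered. Of 16548 rows with a value above 0 in 6 or more libraries, 16541 gave whole reads in all libraries, within 0.02 of a read. Depth limits the precision of low genes.

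Groups were read from the sample titles. Genes with at least 1 RPKM in at least 2 libraries entered limma 3.58.1 (R 4.3.3) as log2(RPKM + 1), a scale that understates changes of low genes. The model had 9 group means, 9 residual degrees of freedom, trend and robust moderation and 19 contrasts. P-values were adjusted over all genes by Benjamini-Hochberg with a threshold of 0.05, and the procedure was run on simulated data. That simulation drew independent counts, with changes planted in TKO at day 0 only and no trend with gene length. It therefore gives no evidence for the calls here. The 35 members and the other lists were chosen with earlier results of these data known and give no independent evidence. For each comparison, up to 5 called members with the largest change were named with their libraries. From each other list, up to 3 called genes could be named at day 0 and at the first step of WT differentiation. Further members were named after seeing their values: Nars, Psat1, Slc3a2, Ppp1r15a, Shmt2 in TKO, Slc7a5 in QKO, Nupr1, Atf4 and Slc7a11 outside its WT rise, and Fgf21 where it did not pass.

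The alternatives were a pseudocount of 0.1, no filter, voom on recovered reads, median-ratio scaling, a length trend removed by loess (span 0.5), a block for the replicate number, and 18 fits without 1 library each, in which a group with 1 library left is assumed to vary like the others. Promoters came from RefSeq (GRCm38.p6) and overlaps of genes from GENCODE M21. Python 3.11.15 with pandas 2.3.3, NumPy 2.4.6 and Matplotlib 3.10.9 made the tables and plots.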

Additional observations from a re-analysis of the deposited data

Results flagged for a closer look

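The results below had a difference between mutant and WT that changed between days by the test of that difference, given on the log2 scale as the difference at the later day less that at day 0 (limma, adjusted p under 0.05). A positive value can come from a day 0 deficit of the mutant that was smaller later, and need not mean a mutant above WT.

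For TKO at day 1 these were Cth (2.16), Phgdh (1.55), Wars (1.01), Mars (0.67) and Slc7a5 (-1.37). For TKO at day 2 they were Cth (2.95), Phgdh (2.18), Trib3 (1.99), Ddit3 (1.89), Gdf15 (1.70), Chac1 (1.63), Mthfd2 (1.30), Shmt2 (1.14), Wars (1.14), Atf4 (0.90), Sars (0.74) and Mars (0.72). Ddit3 and Mars overlap each other on the genome.

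For QKO at day 1 they were Cth (1.73), Phgdh (1.33), Gdf15 (1.01), Shmt2 (0.89) and Mars (0.65), and Slc7a11 (-3.45), whose QKO day 1 libraries were at 5.44 and 0.380 RPKM. For QKO at day 2 they were Cth (2.48), Phgdh (1.41) and Shmt2 (0.93). All of these rest on the same 2 WT day 0 libraries, which differ from each other by gene length. Groups of 2 libraries do not allow a test for a single library that stands apart.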

How the results depend on the processing

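Of the members' counts, those called between TKO and WT at day 1 went from 1 to 0 with no filter or voom, and at day 2 from 1 to 0 with voom, median-ratio scaling, length removal or the replicate block. Between QKO and TKO at day 2, 5 became 2 with voom, median-ratio scaling or length removal. From day 0 to day 1, 26 in TKO became 16 with median-ratio scaling and 17 with length removal, and 28 in QKO became 18 and 17. For QKO less WT, day 1 less day 0, 6 became 2 with voom. The causes were not tested. Over the 19 contrasts and 24 alternatives the only called member that changed direction was Nars, from day 0 to day 1 in WT with median-ratio scaling or length removal and in QKO with length removal.

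Leaving out 1 library at a time gave these ranges. For TKO against WT they were 5 to 11 at day 0, 0 to 1 at day 1 and 0 to 3 at day 2. For QKO against WT they were 3 to 12, 0 to 1 and 0 to 1, and for QKO against TKO 0 to 1 at day 0 and 0 to 17 at day 2. From day 0 to day 1 they were 24 to 29 in WT, 16 to 27 in TKO and 24 to 28 in QKO. From day 1 to day 2 they were 2 to 7 in WT, 6 to 18 in TKO and 0 to 1 in QKO. The changes in the TKO difference from day 0 gave 2 to 8 at day 1 and 4 to 16 at day 2, and those of QKO 2 to 8 and 2 to 7.

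The labels do not say whether replicates with the same number on different days came from the same culture. Differences between replicates correlated at -0.38 to 0.55 over 36 pairs of groups, with a median of 0.04. These pairs pool comparisons within and between genotypes, so they cannot decide that question. With the replicate block 16 members rose in TKO from day 1 to day 2, 6 were lower in QKO than in TKO at day 2, and no count but that of TKO against WT at day 2 moved past 1.5 times. Depth limits Slc7a3 and Cth most, with as few as 15 and 38 reads in a library.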

Other observations

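Other stress pathways were measured in the same libraries. Of 19 genes of endoplasmic reticulum chaperones and the unfolded protein response, 10 rose and 3 fell in WT from day 0 to day 1, where 20.4% of all genes rose and 46.1% fell (13 and 0 under median-ratio scaling), led by the chaperone Dnajb9 (1.77 ± 0.31 on the log2 scale, adjusted p = 0.000185), Herpud1, which serves degradation at the reticulum (1.76 ± 0.15, adjusted p = 3.27e-07), and Dnajc3, an inhibitor of eIF2 kinases (1.61 ± 0.26, adjusted p = 9.89e-05). At day 0, 4 of the 19 were higher in TKO and 7 in QKO than in WT, where 12.8% and 17.3% of all genes were higher, among them the stress sensors Atf6 (1.24 ± 0.21 in both, adjusted p = 0.000925 and 0.00083) and Ern1 (0.83 ± 0.25, adjusted p = 0.0299, and 1.30 ± 0.25, adjusted p = 0.00181). WT replicates 1 and 2 were at 16.8 and 8.58 RPKM for Atf6, against 27.5 to 32.2 RPKM in the mutants. For Ern1 they were at 5.25 and 1.93 RPKM, against 6.90 and 6.29 in TKO and 9.30 and 9.85 in QKO. The lower WT value of both genes was that of replicate 2, the library that stood apart by gene length. At day 2 this list lay near the 35 integrated stress response and amino acid genes, with a median of 0.48 on the log2 scale for TKO against WT and -0.64 for QKO against TKO, beside 0.49 and -0.58 for those 35. None of the 19 passed between TKO and WT at day 2, and 2 were lower in QKO than in TKO, where 0.631% of all genes were lower: Herpud1 (-0.93 ± 0.15, adjusted p = 0.0192) and Dnajb11, a chaperone partner (-0.78 ± 0.16, adjusted p = 0.0469), of which neither passed under median-ratio scaling. From day 1 to day 2 in TKO 3 rose, where 4.73% of all genes rose, Herpud1, Dnajb9 and Syvn1, and 2 under median-ratio scaling. The genes of this day 2 count were named after seeing their values.

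All 7 targets of the oxidative stress factor NRF2 fell in each genotype from day 0 to day 1, as did most of the 35 genes. Of all genes 46.1% fell in WT, 42.1% in TKO and 42.4% in QKO. The targets were led in WT by Srxn1, which repairs peroxiredoxins (-2.51 ± 0.19, adjusted p = 9.88e-08). At day 0, 1 of the 7 was higher in TKO and 2 in QKO, where 12.8% and 17.3% of all genes were higher, and the other targets did not pass. Hmox1, heme oxygenase, was higher in both mutants (TKO 0.87 ± 0.17, adjusted p = 0.00304, QKO 0.74 ± 0.17, adjusted p = 0.00587), and Nqo1, a quinone reductase, in QKO (2.06 ± 0.37, adjusted p = 0.00129). Nqo1 was at 3.29 and 4.19 RPKM in WT, and at 32.9 and 10.5 RPKM in the QKO replicates, which differ widely. Of 12 p53 targets, 5 rose and 3 fell in WT from day 0 to day 1, where 20.4% of all genes rose and 46.1% fell, with the cell cycle inhibitor Cdkn1a at 2.45 ± 0.19 (adjusted p = 1.19e-07). At day 0, 1 was higher and 4 lower in TKO, where 12.8% of all genes were higher and 10.2% lower. In QKO 2 were higher and 3 lower, where 17.3% of all genes were higher and 18.1% lower. The pro-apoptotic Bax was lower in both mutants (-1.23 ± 0.26, adjusted p = 0.00472, and -1.13 ± 0.26, adjusted p = 0.0057), with WT replicates 1 and 2 at 124 and 239 RPKM. Btg2 (1.06 ± 0.20, adjusted p = 0.00181) and Cdkn1a (0.92 ± 0.19, adjusted p = 0.00299) were higher in QKO.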
